A study of Mus musculus with 29 samples.

Results

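The genes described are 10 of the CC chemokines, Ccl2, Ccl3, Ccl4, Ccl5, Ccl7, Ccl8, Ccl11, Ccl20, Ccl24 and Ccl28, found by their symbols among the 54532 genes of the count table. All 10 had enough counts to be tested. They were measured by RNA-seq of colon segments from 29 mice in 9 groups, of which 6 are colitis models and 3 are untreated controls. The comparisons ask how far each chemokine differed in a model from that model's own control, and whether the models differed from one another.

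By the labels, the untreated wild-type (n = 3), DSS (n = 3), DNBS (n = 3) and IL-10 blockade (n = 4) mice were BALB/c. DSS mice drank 3% dextran sulfate sodium, a detergent-like polymer that injures the epithelium, for 5 days and were culled at day 10. DNBS mice received 3 mg of the hapten dinitrobenzene sulfonic acid rectally in 200 µl of 50% ethanol, and the labels give no vehicle group. IL-10 blockade is an antibody against IL-10 in the treatment label and one against its receptor (750 µg, culled after 4 weeks) in the protocol. TRUC mice (n = 4) were untreated BALB/c Tbx21-/- x Rag2-/- mice, which develop colitis without T or B cells, and their controls were untreated BALB/c Rag2-/- mice (n = 3), so both are Rag2-/- by label. The mice labelled C57BL/6 Rag1-/- were left untreated (n = 3), given 50 µg of agonist anti-CD40 antibody and culled after 7 days (n = 3), or given 500000 naive CD4+ T cells and culled after 6 to 8 weeks (TCT, n = 3). The paper's methods differ from the labels on several points: untreated and DSS mice are C57BL/6 there, Il10-/- mice stand in place of the antibody, and the label protocol calls the T-cell recipients Rag2-/-. In those methods DSS mice were culled at day 7 or 8, DNBS mice after 3 days and T-cell recipients after 4 to 6 weeks. No ages are stated in the labels. The label identifiers of TRUC mice 4 and 5 are TRUC_8W and TRUCB372, unlike those of mice 2 and 3, and what they stand for is not given.

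CC chemokines are small secreted proteins, named for their adjacent first cysteines, that bind heparan sulfates and draw leukocytes bearing G protein-coupled CC receptors. In the gut, CCL2 and CCL7 act on CCR2 of monocytes, CCL3, CCL4 and CCL5 on T cells and macrophages, CCL11 and CCL24 on CCR3 of eosinophils, CCL20 on CCR6 of B cells, dendritic cells and Th17 cells, and CCL28 on CCR10 of plasma cells. CCL8 of the mouse acts on CCR8. CCL20 and CCL28 are made largely by epithelial cells, and the others mainly by leukocytes and stromal cells.

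Each mouse had between 10725564 and 14977094 counts. Rag1 and Rag2 counts did not follow the Rag1-/- and Rag2-/- labels. Rag2 had 0 to 1 counts in the wild-type controls, but 15 to 25 in the libraries labelled Rag2 control and 57 to 94 in those labelled TRUC, which goes against the Rag2-/- label as far as counts of that gene can show. Rag2 also had 6 to 20 counts in the Rag1 controls and 48 to 99 after anti-CD40, and Rag1 had at most 4 counts in those 4 groups, while the TCT libraries had 20 to 33 counts of Rag1 and 0 of Rag2. The Rag1 control, anti-CD40, TCT, Rag2 control and TRUC groups are therefore the libraries labelled so throughout, and TCT and anti-CD40 are also given against other controls. The libraries labelled TRUC had 26 to 52 counts of the deleted Tbx21 and their controls 1 to 7, and gene counts do not show whether the deleted exons of Rag1, Rag2 or Tbx21 were read. B-cell and follicle markers summed to 77.35 to 126.5 CPM in the wild-type controls. They summed to at most 2.135 CPM in the Rag1 control, anti-CD40, Rag2 control and TRUC groups and to 2.479 to 5.851 CPM in TCT. Such low sums are what Rag-deficient labels would give. Il10 had 61 to 111 counts in IL-10 blockade and 1 to 4 in the wild-type controls. In the DSS group mouse 8 stood apart, with summed neutrophil markers at 2396 CPM (counts per 1000000 of the scaled library total) against at most 748 in mice 5 and 6, and summed monocyte and macrophage markers at 1770 CPM against 582 and 687. Epithelial markers summed to at least 6791 CPM in every library of the series, so each library held colon epithelium. In whole colon RNA, fewer cells of a type and less RNA per cell cannot be told apart.

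Of the 10 members, 7 lie on chromosome 11 in GRCm38, in 2 stretches that hold Ccl2 (82035571 to 82037453), Ccl7, Ccl11 and Ccl8, and Ccl5, Ccl3 and Ccl4 (83662584 to 83664683). Ccl20 lies on chromosome 1, Ccl24 on chromosome 5 and Ccl28 on chromosome 13. RefSeq promoters (GRCm38.p6, 250 bases before to 50 after the start) were found for 4 of the 10, Ccl20, Ccl8, Ccl3 and Ccl28. They were searched on both strands for the κB consensus (present in 8.46% of all 32851 promoters), the IRF-like GAAA repeated after 2 free bases (3.44%), TTCNNNGAA (8.3%), TGANTCA (7.81%) and TATAAA (13.6%). The upstream 250 bases of the epithelial Ccl20 and of Ccl8, which was called higher in 5 models, are shown 5′ to 3′ because each held a match, marked by capitals: κB starting at -80 in Ccl20 (minus strand) and TATAAA at -32 in Ccl8. Ccl20 is at chr1:83116516-83116765 and Ccl8 at chr11:82114935-82115184, both on the plus strand.
Ccl20: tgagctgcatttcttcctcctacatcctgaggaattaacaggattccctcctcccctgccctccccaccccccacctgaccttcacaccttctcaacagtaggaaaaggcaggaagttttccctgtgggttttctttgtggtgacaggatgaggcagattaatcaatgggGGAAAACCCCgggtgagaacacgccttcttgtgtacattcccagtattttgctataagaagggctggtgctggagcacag
Ccl8: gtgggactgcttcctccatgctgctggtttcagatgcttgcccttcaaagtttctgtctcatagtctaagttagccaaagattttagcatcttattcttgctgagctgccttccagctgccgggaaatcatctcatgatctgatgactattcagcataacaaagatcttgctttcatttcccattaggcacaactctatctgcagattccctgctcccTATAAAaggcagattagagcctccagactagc
Ccl28 held TGAGTCA at +21, and Ccl3 held none of these motifs. A match is a description of the letters and not of binding.

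Ccl2 rose in all 6 models (in DNBS with an adjusted p of 0.0487, edgeR) and Ccl5, Ccl7 and Ccl8 in 5 of them, while the epithelial Ccl28 rose in none. A gene was called where its p from the quasi-likelihood test of edgeR, adjusted by Benjamini-Hochberg across 18616 genes, was below 0.05. In DSS, 8 of 10 members rose and 1 fell, where 17.7% of all genes tested were called higher and 16.3% lower. IL-10 blockade also had 8 members higher and 1 lower, against 27.2% and 26.1% of all genes (20.7% and 33.2% with upper quartile scaling). In TCT 7 members rose (16.1% of all genes), and none fell (14%; 1 at an unadjusted p under 0.05 and 0 by DESeq2). TRUC and anti-CD40 each had 4 members higher, against 22.4% and 10.9% of all genes, and none lower, against 23.4% and 10.7% (0 at an unadjusted p under 0.05 and 0 by DESeq2 in both). In DNBS 1 member rose, against 3.95% of all genes, and none fell, against 2.21% (0 by either count). Upper quartile scaling gave 2.91% and 2.79% of all genes in DNBS. The median log2 fold change of the 10 members was 4.92 in DSS, 4.14 in TCT, 3.39 in IL-10 blockade, 2.61 in anti-CD40, 2.55 in TRUC and 1.35 in DNBS, where the medians of all genes lay between -0.03 and 0.024.

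**Figure D1:**
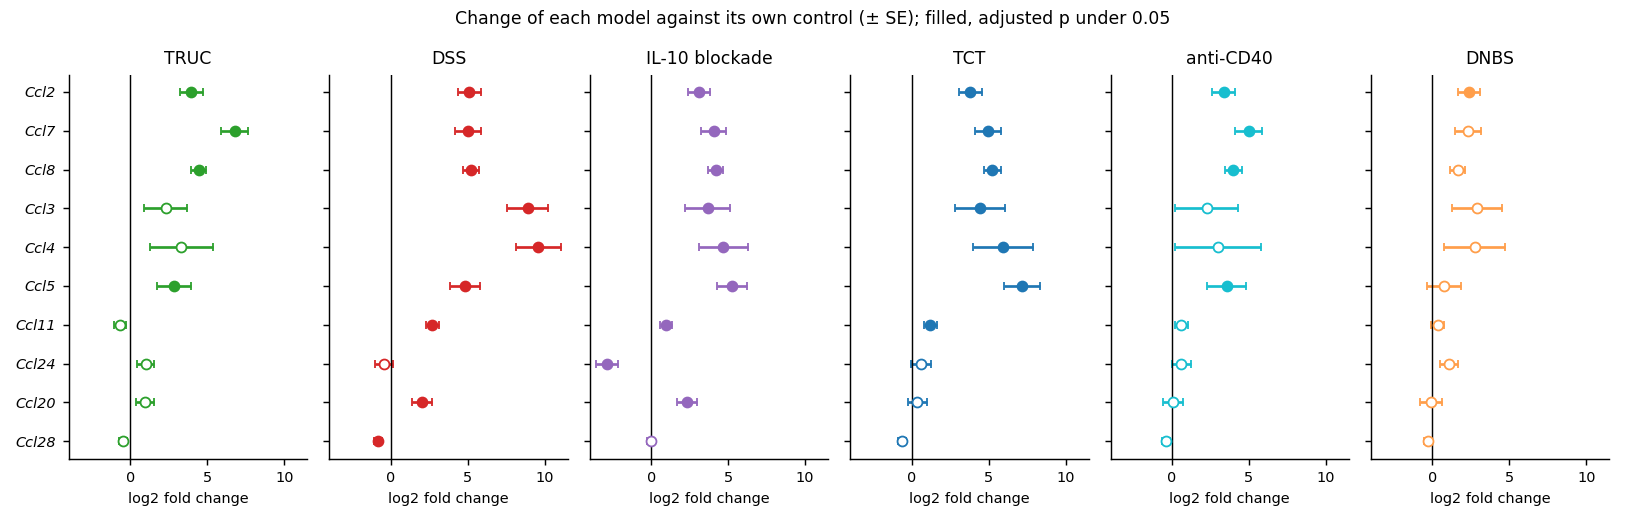
Log2 fold change (horizontal axes) of each member (vertical axis) in each of 6 models against its own control, with bars of 1 SE, filled where the adjusted p is under 0.05. Ccl2 is filled in all 6 panels, Ccl7 and Ccl8 in 5, and Ccl28 lies at or below 0 throughout.

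Ccl2, the main CCR2 ligand of monocyte recruitment, rose in all 6 models. The control mice held 0.38 to 2.36 CPM, a low level in each of the 3 control groups. In TRUC mice 2 to 5 it stood at 13.7, 15.6, 14.02 and 8.30 CPM, all above their controls (0.89, 0.38 and 1.21 CPM). The log2 fold change was 3.95 ± 0.75 (SE, n = 4 against 3, adjusted p = 2.2e-04, edgeR). DSS mice 5, 6 and 8 held 10.4, 9.16 and 112 CPM, against 0.76, 1.73 and 1.23 CPM in the wild-type controls, so mouse 8 carried most of the mean (log2 fold change 5.11 ± 0.74, and 2.96 without it). IL-10 blockade mice lay close together, at 9.86, 11.54, 9.87 and 11.9 CPM (3.10 ± 0.70). The libraries labelled TCT held 17.03, 14.96 and 20.6 CPM (3.82 ± 0.73), and those labelled anti-CD40 15.97, 15.3 and 6.82 CPM (3.35 ± 0.73). DNBS had the smallest rise, at 5.79, 6.13 and 8.02 CPM (2.39 ± 0.72), and its adjusted p of 0.0487 (edgeR) went above 0.05 when any 1 of the 6 mice other than DNBS mouse 11 was left out (up to 0.18). The DNBS call was also lost with RLE or upper quartile scaling.

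Ccl7, another CCR2 ligand encoded beside Ccl2, was highest in TRUC. Its TRUC mice held 89.1, 83.7, 78.6 and 79.7 CPM, and their controls 0.97, 0.38 and 0.91 CPM. That was a log2 fold change of 6.77 ± 0.88 (SE, n = 4 against 3, adjusted p = 3.9e-06, edgeR), the largest of the 10 members in this model. In DSS the values were 9.88, 6.43 and 79.9 CPM (5.03 ± 0.84, and 3.07 without mouse 8), so that mouse 8 alone reached the TRUC range. Ccl7 also rose in IL-10 blockade (13.2, 37.1, 8.75 and 6.90 CPM, 4.07 ± 0.81), where mouse 2 was above the others. The anti-CD40 libraries held 27.9, 37.4 and 10.6 CPM (4.97 ± 0.87), and the TCT libraries 19.7, 17.3 and 37.6 CPM (4.95 ± 0.87). DNBS mice held 4.24, 4.11 and 6.23 CPM, all above the wild-type 0.76 to 1.07 CPM, but the change was not called (2.31 ± 0.86, adjusted p = 0.10, edgeR).

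Ccl7 and Ccl2 did not keep one ratio across the models. The count of Ccl7 over that of Ccl2 was 5.38 to 9.60 in TRUC, while every mouse of the other groups lay at or under 3.22. In anti-CD40 the ratio was 1.56 to 2.45, in TCT 1.16 to 1.83, in DSS 0.70 to 0.95 and in DNBS 0.67 to 0.78. The Rag2 controls of TRUC had ratios of 0.75 to 1.10, within the range of the other control mice (0.50 to 1.00) or just above it. Beside the TRUC ratio, summed monocyte and macrophage markers were at 700 to 911 CPM in TRUC against 570 to 631 CPM in anti-CD40, and neutrophil markers at 1534 to 2091 against 556 to 885 CPM. DSS mouse 8 had more of both sets of markers than any TRUC mouse, at 1770 and 2396 CPM, with a ratio of 0.72. DSS mice 5 and 6 had monocyte and macrophage markers at 582 and 687 CPM, with ratios of 0.95 and 0.70. In IL-10 blockade mice 1 to 4 the ratios were 1.34, 3.22, 0.89 and 0.58, beside neutrophil markers at 521, 921, 343 and 241 CPM. In anti-CD40 mice 6 to 8 they were 1.75, 2.45 and 1.56, beside 632, 885 and 556 CPM. By contrast, TRUC mouse 5 had the highest ratio of its group (9.60) and the lowest neutrophil sum (1534 CPM). TCT mice 1 and 3 both had a ratio of 1.16, at 587 and 331 CPM. The part of these markers in the ratio was not tested.

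**Figure D2:**
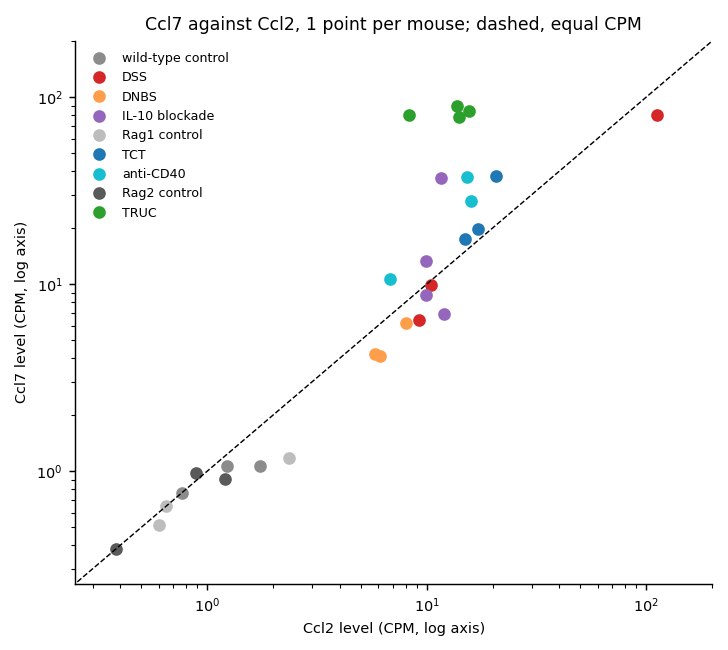
Ccl7 against Ccl2 in each of 29 mice, both in CPM on log axes, coloured by group, with a dashed line at equal CPM. The 4 TRUC mice lie apart above the line, with Ccl7 at 78.6 to 89.1 CPM and Ccl2 at 8.30 to 15.6 CPM.

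Ccl8, a ligand of CCR8 in the mouse, rose in 5 models and without overlap with the controls in each. The IL-10 blockade mice held 46.0, 45.4, 42.9 and 44.1 CPM, against 1.98, 3.33 and 1.97 CPM in the wild-type controls (log2 fold change 4.18 ± 0.49, adjusted p = 8.3e-07, edgeR). TRUC mice held 39.7, 58.1, 60.2 and 31.8 CPM and their controls 1.77, 1.84 and 2.94 CPM (4.43 ± 0.50, adjusted p = 7.3e-07, edgeR). DSS mice had 68.0, 49.1 and 161 CPM (5.23 ± 0.52, and 4.57 without mouse 8), again with mouse 8 highest. The TCT libraries held 34.0, 29.4 and 66.5 CPM (5.23 ± 0.55), and the anti-CD40 libraries 18.2, 23.6 and 12.7 CPM (3.98 ± 0.55), against 0.97, 1.33 and 1.12 CPM in the Rag1 controls. In DNBS the mice ran from 3.02 to 14.5 CPM and overlapped the controls, and the adjusted p of 0.0501 (edgeR) missed the threshold (1.64 ± 0.50). It was called by DESeq2, and by edgeR without DNBS mouse 11 or 14.

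Ccl3 and Ccl4, the macrophage inflammatory proteins, were nearly silent in the controls and large in 1 DSS mouse. DSS mice 5, 6 and 8 held 3.27, 7.38 and 179 CPM of Ccl3, against 0 to 0.27 CPM in the wild-type controls (log2 fold change 8.89 ± 1.33, adjusted p = 3.4e-05, edgeR). Ccl4 in the same mice was at 2.46, 5.95 and 187 CPM. Its 3 controls held 1 count each, which gives a ratio of 769 with a 95% counting interval of 263 to 3730. Mice 5 and 6 were above every control mouse for both genes, and without mouse 8 both were still called, with fitted log2 fold changes of 5.33 for Ccl3 and 5.64 for Ccl4. Such intervals cover counting error only.

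In the remaining models Ccl3 and Ccl4 stayed at a few CPM. Ccl3 in IL-10 blockade was at 1.35, 1.77, 1.46 and 2.30 CPM (3.69 ± 1.46, adjusted p = 0.037, edgeR) and Ccl4 at 1.52, 1.04, 2.83 and 3.35 CPM, a ratio of 29.3 (9.71 to 145) to its controls. Both were called higher, but the call of Ccl3 held in 2 of 7 edgeR fits that left out 1 mouse (those without mouse 1 or 3 of IL-10 blockade), and that of Ccl4 was lost without wild-type mouse 1 or 2. In TCT, Ccl3 held 2.62, 1.62 and 1.67 CPM and Ccl4 2.01, 2.14 and 2.69 CPM. The controls of that comparison had 3 counts of Ccl3 and 1 of Ccl4 in all, so the ratios are wide, 24.7 (8.10 to 123) and 85.1 (14.8 to 3406). Both were called, but Ccl3 in none of the 6 fits that left out a mouse (adjusted p from 0.057 to 0.11, edgeR) and Ccl4 only in those without TCT mouse 1 or 3. TRUC mice held 0.81 to 1.40 CPM of Ccl3 and 0.16 to 1.18 CPM of Ccl4, above all of their controls, and neither was called (adjusted p = 0.19 for each, edgeR). In anti-CD40 (Ccl3, 0.07 to 0.94 CPM) and DNBS (Ccl3, 0.18 to 2.40 CPM) the mice overlapped the controls for Ccl3, and neither Ccl3 nor Ccl4 was called. Every group of controls had mice at or under the limit that a count of 0 allows, 3 counts or 0.179 to 0.314 CPM.

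Ccl5, a chemokine made by activated T and NK cells among others, was highest in TCT, IL-10 blockade and DSS mouse 8. The TCT libraries held 46.7, 34.5 and 25.5 CPM, against 0.16, 0.29 and 0.26 CPM in the Rag1 controls. This was a log2 fold change of 7.15 ± 1.16 (SE, n = 3 against 3, adjusted p = 4.6e-05, edgeR), which became 5.504 against the wild-type and 6.37 against the Rag2 controls. IL-10 blockade mice held 23.9, 29.1, 32.4 and 33.1 CPM, against 0.76, 0.60 and 0.98 CPM (5.24 ± 0.97, adjusted p = 1.2e-04, edgeR). In DSS, mice 5 and 6 stood at 3.78 and 2.87 CPM and mouse 8 at 60.1 CPM (4.82 ± 0.98, and 2.09 without mouse 8). TRUC and anti-CD40 lay below TCT and IL-10 blockade, near DSS mice 5 and 6. TRUC stood at 1.92, 4.45, 4.31 and 1.55 CPM (2.82 ± 1.09, adjusted p = 0.038, edgeR) and anti-CD40 at 5.26, 2.06 and 1.58 CPM (3.55 ± 1.26, adjusted p = 0.045, edgeR). The TRUC call was lost without Rag2 control 1 or 2 or TRUC mouse 3 or 4, and the anti-CD40 call held only without anti-CD40 mouse 8. Against the Rag2 controls, anti-CD40 was at 2.76 (adjusted p = 0.078, edgeR). DNBS was not called (0.54, 0.16 and 3.41 CPM).

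The lymphocyte markers are given beside Ccl5. Summed T-cell markers were at 108 to 204 CPM in TCT and 80.9 to 139 CPM in IL-10 blockade, against 4.45 to 6.77 CPM in anti-CD40 and 7.57 to 10.05 CPM in TRUC. NK and cytotoxic markers were at 61.5 to 99.2 CPM in TCT, 176 to 279 CPM in IL-10 blockade, 37.1 to 44.4 CPM in anti-CD40, 15.9 to 29.4 CPM in TRUC and at most 4.305 CPM in the control mice. All 8 T-cell markers were called higher in TCT and in IL-10 blockade (16.1% and 27.2% of all genes), 4 in DSS (17.7%) and 3 in TRUC (22.4%). In anti-CD40 and DNBS 0 were called higher (10.9% and 3.95% of all genes). At an unadjusted p under 0.05 those counts were 2 and 0, and by DESeq2 1 and 0. Of 6 NK and cytotoxic markers, 6 were called higher in TRUC and in DSS, and 5 in IL-10 blockade and in TCT. In anti-CD40 4 were called higher, and in DNBS 1 (6 at an unadjusted p under 0.05 and 3 by DESeq2). DSS mouse 8 had 58.9 CPM of T-cell markers, fewer than any IL-10 blockade or TCT mouse, with more Ccl5 than any of them. Its NK and cytotoxic markers were at 79.8 CPM, within the TCT range and below every IL-10 blockade mouse. DSS mice 5 and 6 had at most 16.87 CPM of these. The part of these cells in the level of Ccl5 was not tested.

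**Figure D3:**
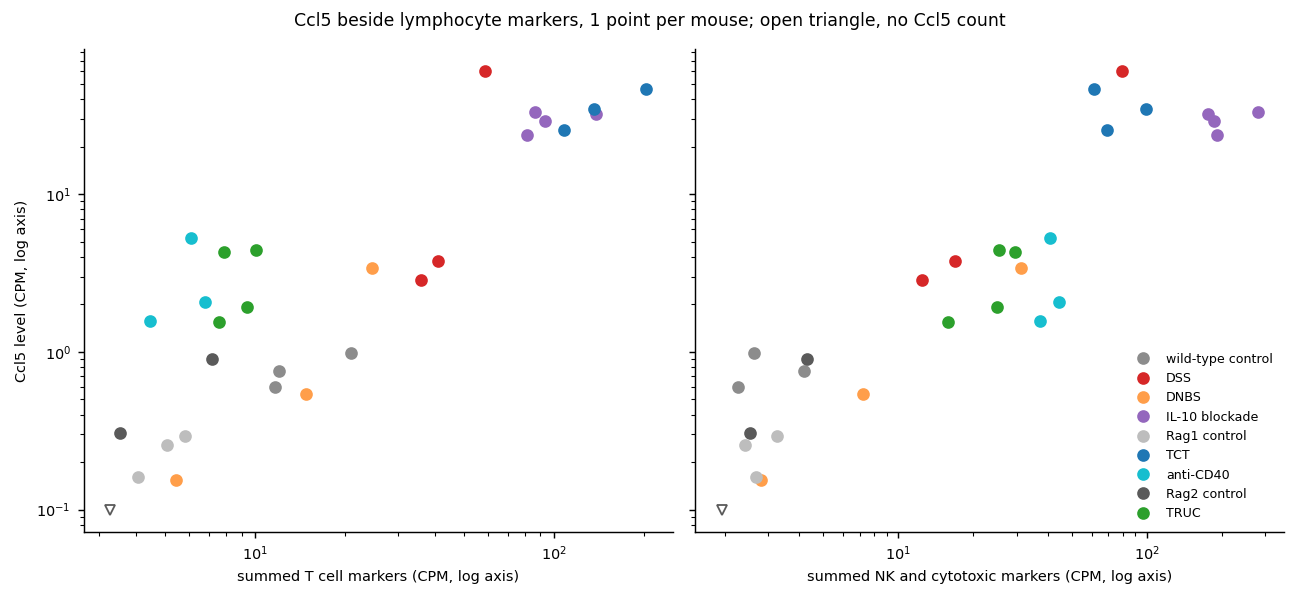
Ccl5 (CPM) against summed T-cell markers (left) and summed NK and cytotoxic markers (right) in 29 mice, all on log axes and coloured by group. The TCT and IL-10 blockade mice lie at upper right beside DSS mouse 8, with Ccl5 at 23.9 to 46.7 CPM, and the anti-CD40 and TRUC mice lie at 1.55 to 5.26 CPM with few T-cell markers.

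Ccl11 and Ccl24, the eotaxins that share CCR3, were called in opposite directions in IL-10 blockade only, and their difference was not tested. Their log2 fold changes also had opposite signs in DSS (2.68 and -0.43) and TRUC (-0.66 and 0.98). Both were above 0 in DNBS (0.34 and 1.06), TCT (1.20 and 0.60) and anti-CD40 (0.60 and 0.61). Pearson's r of the 2 genes on log2 CPM was -0.075 over the 29 mice and 0.46 within groups. Ccl11 was present in every mouse, and DSS raised it to 20.2, 23.6 and 62.1 CPM from 5.64, 6.39 and 4.35 CPM (log2 fold change 2.68 ± 0.42, adjusted p = 5.8e-05, edgeR, and 2.00 without mouse 8). The rises in IL-10 blockade (5.73, 10.8, 14.1 and 12.9 CPM, 0.99 ± 0.40, adjusted p = 0.039) and in TCT (6.64, 10.6 and 15.4 CPM, 1.20 ± 0.42, adjusted p = 0.033) were small and overlapped the controls. The first held, of 7 edgeR fits that left out a mouse, only without mouse 1 of IL-10 blockade, and the second, of 6, only without Rag1 control 3 or TCT mouse 1, and the TCT change was 0.20 against the Rag2 controls (adjusted p = 0.75). TRUC (4.54 to 7.24 CPM), anti-CD40 (4.98 to 8.18 CPM) and DNBS (5.97 to 7.51 CPM) were not called.

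Ccl24 fell in IL-10 blockade and was called in no other model. Its 4 mice had 0, 10, 1 and 2 counts (0, 1.04, 0.09 and 0.21 CPM), against 29, 34 and 32 counts in the wild-type controls (2.21, 2.26 and 2.62 CPM). The log2 fold change was -2.88 ± 0.71 (SE, n = 4 against 3, adjusted p = 0.0016, edgeR), and it was called after leaving out any 1 of the 7 mice. DSS mice held 1.51 to 1.98 CPM, below each control but uncalled (-0.43 ± 0.60, adjusted p = 0.61, edgeR), while TRUC mice (3.99 to 7.08 CPM) were all above their controls and DNBS mice (2.17 to 7.40 CPM) overlapped theirs, both uncalled. The count of Ccl24 over that of Ccl11 was 0.35 to 0.60 in the wild-type controls, 0 to 0.096 in IL-10 blockade, 0.028 to 0.084 in DSS and 0.65 to 1.17 in TRUC. Eosinophil markers summed to 7.74 to 12.9 CPM in IL-10 blockade and 1.45 to 2.30 CPM in the wild-type controls, with Epx and Ear6 without a count in both groups. Monocyte and macrophage markers summed to 342 to 601 CPM against 224 to 277 CPM. Of these 9 markers 4 were called higher and 2 lower, against 27.2% and 26.1% of all genes. The part of either set of markers in the fall was not tested.

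Ccl20, the epithelial ligand of CCR6 whose promoter is shown above, rose in 2 models. In DSS it was at 23.1, 7.66 and 6.08 CPM, against 3.58, 2.26 and 3.20 CPM (log2 fold change 2.03 ± 0.66, adjusted p = 0.021, edgeR). Here mouse 5 was high and mouse 8 lowest of the 3, unlike in Ccl2, Ccl3, Ccl4, Ccl5, Ccl7, Ccl8 and Ccl11. Without mouse 5 the change was 1.18 (adjusted p = 0.19), and the call was also lost without wild-type mouse 2 or 4. IL-10 blockade mice held 13.7, 22.7, 23.0 and 1.15 CPM (2.33 ± 0.65, adjusted p = 0.0043, edgeR). Mouse 4 was below all controls, and it also had the highest sum of epithelial markers of that group. TRUC mice held 17.4, 9.88, 27.3 and 12.0 CPM over controls of 7.12 to 10.6 CPM, and were not called (0.94 ± 0.59, adjusted p = 0.20, edgeR). TCT, anti-CD40 and DNBS were not called, at 4.79 to 17.3, 6.17 to 9.77 and 2.09 to 4.03 CPM. The untreated Rag2 controls stood at 7.12 to 10.6 CPM, above the wild-type controls in all 3 mice, a log2 difference of 1.53 ± 0.67 that was not called (adjusted p = 0.19, edgeR). Between these controls 0 of 10 members were called (1 at an unadjusted p under 0.05 and 0 by DESeq2), against 8.11% of all genes. Against the wild-type controls, of another strain by the labels, Ccl20 in TCT was 1.78 higher (adjusted p = 0.046, edgeR).

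Ccl28, the epithelial ligand of CCR10 on IgA plasma cells, had the smallest spread of changes. It held 188, 207 and 199 CPM in the wild-type controls, and no mouse of the series was under 57.3 CPM. DSS lowered it to 109, 167 and 57.3 CPM (log2 fold change -0.84 ± 0.26, adjusted p = 0.014, edgeR), and without mouse 8 it was at -0.52 (adjusted p = 0.10). The changes in TCT (-0.62 ± 0.26, adjusted p = 0.070), TRUC (-0.48 ± 0.24, adjusted p = 0.098), anti-CD40 (-0.37 ± 0.25), DNBS (-0.29 ± 0.25) and IL-10 blockade (-0.04 ± 0.24) were not called by edgeR. The IL-10 blockade mice held 215, 198, 238 and 123 CPM. Its receptor Ccr10 rose in that model alone among the 6, from 1.22 to 1.48 CPM in the controls to 5.44 to 13.7 CPM (2.69 ± 0.36, adjusted p = 3.4e-06, edgeR), and plasma cell markers summed to 4515 to 7247 CPM there against 296 to 1130 CPM. Set directly against DSS, Ccr10 was 3.04 ± 0.37 higher in IL-10 blockade (adjusted p = 8.7e-07, edgeR), and its difference from the other 4 models was not tested. Colon epithelium markers summed to 12140 to 23010 CPM in IL-10 blockade against 8604 to 10340 CPM in its controls (6 of 9 called higher and 1 lower). Smooth muscle markers summed to 2628 to 4955 against 6489 to 8061 CPM (5 of 6 called lower). Among all genes 27.2% were called higher in that model and 26.1% lower. The part of these markers in the level of Ccl28 was not tested.

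**Figure D4:**
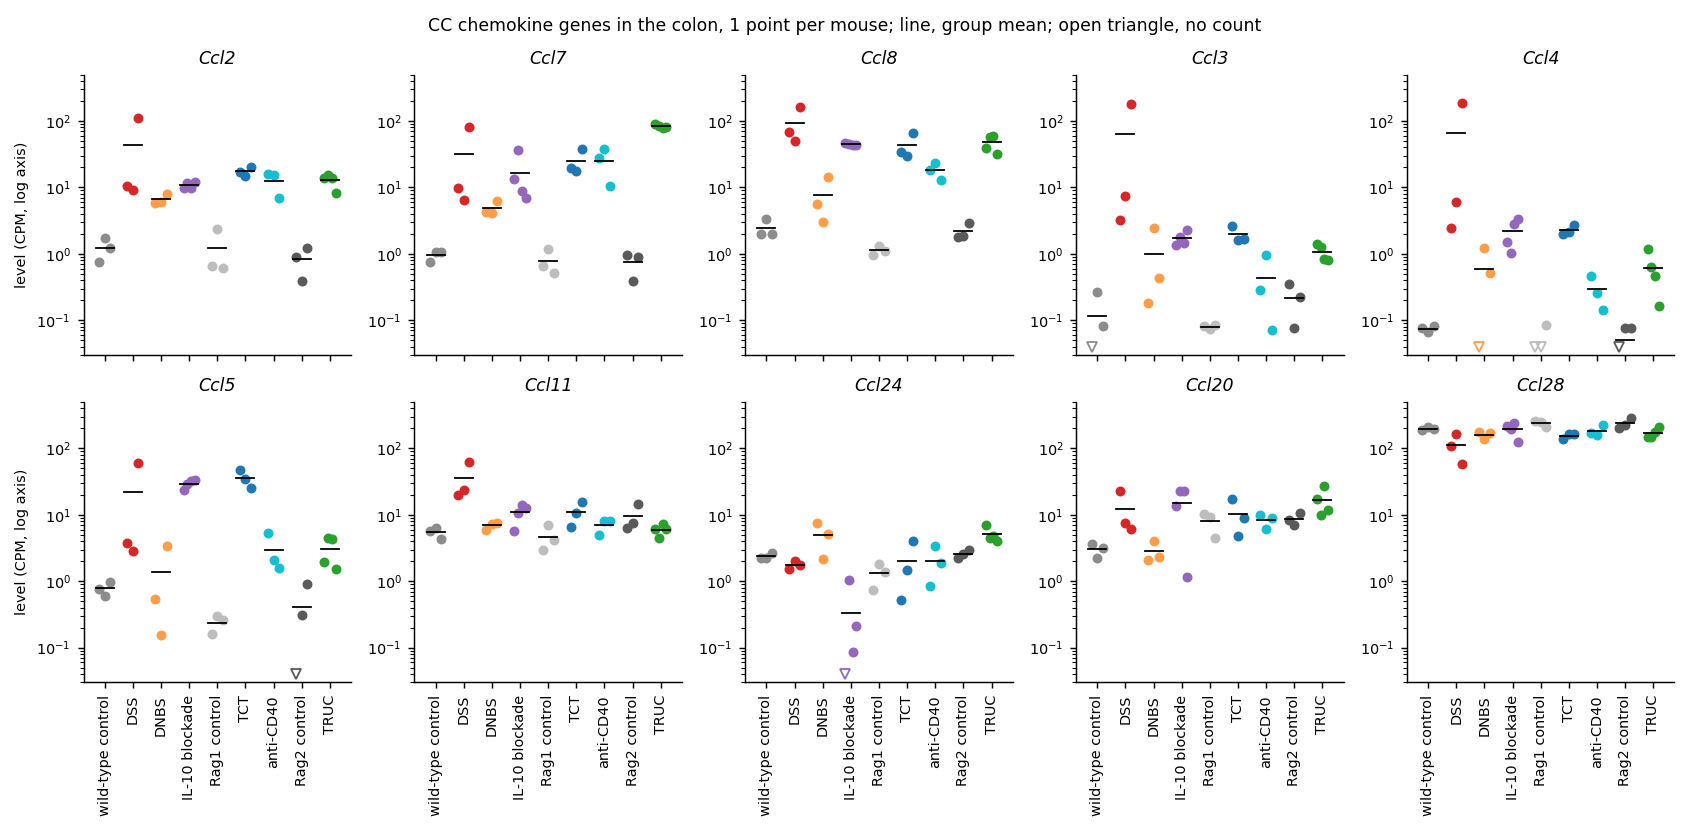
Level of each of the 10 members in CPM (log axes) in 29 mice by group, with group means as lines and open triangles for mice without a count. Control mice lie at or under 3.33 CPM for Ccl2, Ccl7, Ccl8 and Ccl5, DSS mouse 8 is the high red point of most panels, and Ccl28 stays between 57.3 and 288 CPM.

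The changes were unequal between models for 9 of the 10 members in a single F test over the 6 contrasts, where 60.5% of all genes were called. The adjusted p values (edgeR) ran from 2.6e-05 for Ccl8 to 0.022 for Ccl20, and Ccl28 was not called (0.091). Ccl2 lost this call without DSS mouse 8 (0.13), Ccl7 without DNBS mouse 11 or 14 (0.059 and 0.058) and Ccl20 without DNBS mouse 11 or 16 (0.074 and 0.062), and Ccl28 gained it without DSS mouse 6 or IL-10 blockade mouse 4. DSS, DNBS and IL-10 blockade share the wild-type controls, and TCT and anti-CD40 the Rag1 controls.

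The 2 chemical models were set against each other directly. In DSS against DNBS, 8 members differed, all higher in DSS, where 22.6% of all genes were called in either direction. The differences in log2 fold change were 6.85 for Ccl4, 6.00 for Ccl3, 4.08 for Ccl5, 3.60 for Ccl8, 2.72 each for Ccl2 and Ccl7, 2.35 for Ccl11 and 2.14 for Ccl20. Without DSS mouse 8 the count was 5, where the share of all genes called was 8.65%, and Ccl2 (0.57), Ccl5 (1.36) and Ccl7 (0.76) were no longer called. Ccl20 lost its call without DSS mouse 5 or DNBS mouse 11 or 16. DSS mice 5 and 6 held Ccl2 at 10.4 and 9.16 CPM beside 5.79 to 8.02 CPM in DNBS. Times after treatment differ between the models, and the labels give none for DNBS, where the paper's methods do.

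IL-10 blockade against DSS gave 7 called members, 6 lower and 1 higher, where 49.8% of all genes were called. Ccl3 (-5.20), Ccl4 (-4.89), Ccl24 (-2.45), Ccl2 (-2.01), Ccl11 (-1.70) and Ccl8 (-1.05) were lower in IL-10 blockade, and Ccl28 was higher by 0.80. Without DSS mouse 8 the count was 4, where 43.6% of all genes were called, and the values of Ccl2, Ccl4, Ccl8 and Ccl28 no longer passed (0.14, -0.94, -0.39 and 0.49). Ccl5, which was not called with all mice (0.42, adjusted p = 0.65, edgeR), was then 3.15 higher in IL-10 blockade (adjusted p = 4.1e-04). In the remaining DSS mice Ccl5 lay at 2.87 and 3.78 CPM, beside 23.9 to 33.1 CPM in IL-10 blockade.

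TCT and anti-CD40, which share the labelled Rag1 controls, differed in 2 members, where 18.4% of all genes were called. Ccl5 was 3.60 ± 0.87 higher in TCT (adjusted p = 0.0043, edgeR) and Ccl8 1.25 ± 0.42 higher (adjusted p = 0.040), and the call of Ccl8 was lost without TCT mouse 5, anti-CD40 mouse 6 or anti-CD40 mouse 8. The control mice cancel in this contrast. TRUC against anti-CD40 gave 0 of 10 members, where 1.1% of all genes were called (1 member at an unadjusted p under 0.05 and 0 by DESeq2). The difference for Ccl7 was 1.80 ± 1.31 (adjusted p = 0.53, edgeR).

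The TCT and anti-CD40 groups were also set against other controls. TCT had 7 members higher against the wild-type controls, where 16.9% of all genes were called higher, and 5 against the Rag2 controls, where 17.4% were. Anti-CD40 had 3 against the Rag2 controls, where 12.4% of all genes were called higher. Ccl2, Ccl7 and Ccl8 were called in each of those comparisons. In TCT, Ccl3 was 3.15 against the Rag2 controls (adjusted p = 0.083, edgeR).

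Per length, the make-up of the members shifted between groups. On the scale of CPM per kilobase of exon, Ccl28 was 68.5% to 72.2% of the summed level of the 10 members in the wild-type controls, 71.1% to 79.3% in the Rag1 controls and 64.7% to 71.1% in the Rag2 controls. It was 10.9% to 18.5% in TRUC, 11.9% to 18.9% in TCT, 13.6% to 22.1% in IL-10 blockade and 1.01% to 17.5% in DSS, while DNBS (37.0% to 50.8%) and anti-CD40 (20.8% to 43.0%) lay between. The sum of the other 9 members was 12.0 to 32.5 CPM per kilobase in the controls. It was 189 to 264 in TRUC, 148 to 252 in TCT, 159 to 206 in IL-10 blockade, 61.3 to 124 in anti-CD40 and 32.9 to 60.7 in DNBS, and in DSS it was 163 and 203 in mice 6 and 5 and 1155 in mouse 8.

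Among those 9, Ccl8 led in every DSS, IL-10 blockade and TCT mouse, with Ccl8 at 87.3 ± 2.7 CPM per kilobase (SD, n = 4) in IL-10 blockade. Ccl7 led in 2 of 4 TRUC mice and in 1 of 3 anti-CD40 mice, and Ccl8 in the rest of both. In TRUC the mean level per length was 103 ± 5.9 for Ccl7 and 92.9 ± 27.2 for Ccl8 (SD, n = 4), which overlap. In the 9 control mice the leader was Ccl11 or Ccl20, with 1 exception led by Ccl8. Ccl5 held 14.7% to 21.5% of the sum in IL-10 blockade and 10.6% to 27.1% in TCT, and at most 6.48% in each other group.

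**Figure D5:**
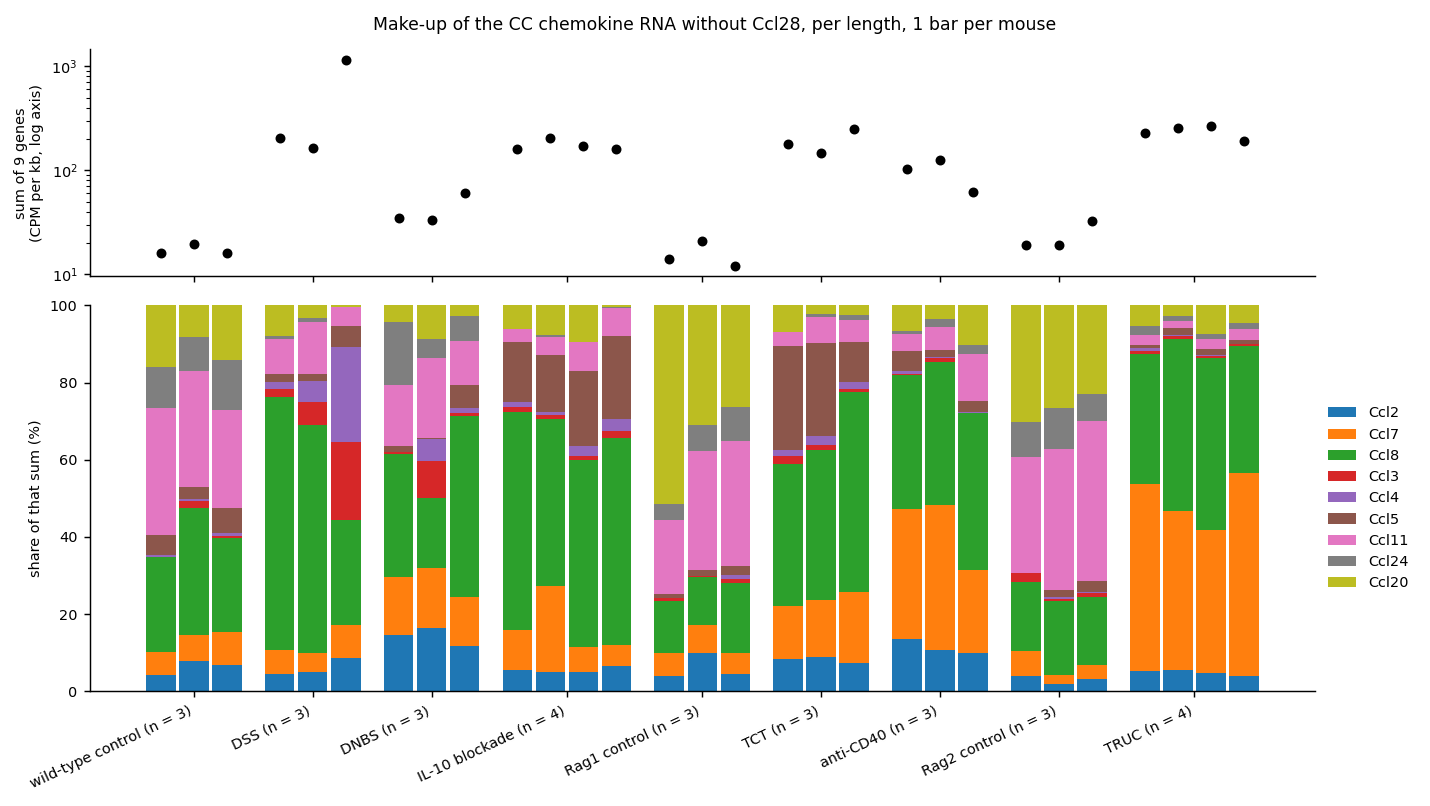
Sum of the 9 members other than Ccl28 in CPM per kilobase of exon (upper panel, log axis) and each member's share of that sum in percent (lower panel), 1 point and 1 bar for each of 29 mice by group. Ccl8 (green) is the leading share of the DSS, IL-10 blockade and TCT bars, Ccl7 (orange) is broad in TRUC, and Ccl11 (pink) and Ccl20 (olive) are broad in the controls.

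The receptors give the other side of the pathway. Of 14 CC receptors, 9 were called higher in DSS, 8 in TCT, 7 in IL-10 blockade, 5 in anti-CD40, 4 in TRUC and 2 in DNBS, and 1 was called lower, in TRUC. Over all genes the shares called higher were, in the same order, 17.7%, 16.1%, 27.2%, 10.9%, 22.4% and 3.95%, and 23.4% were lower in TRUC. The 4 receptors higher in TRUC thus lie near the share of all genes there. Ccr2, the receptor of CCL2 and CCL7 on monocytes, was called higher in all 6 models. For Ccr2 the log2 fold change was lowest in anti-CD40 (1.65 ± 0.34) and highest in TCT (3.42 ± 0.34), where the libraries held 39.1 to 62.8 CPM against 3.96 to 6.04 CPM. DNBS mice held 42.9 to 43.7 CPM of Ccr2 over 11.8 to 13.6 CPM in the controls (1.75 ± 0.31, adjusted p = 0.0028, edgeR). Ccr1, which binds CCL3, CCL5 and CCL7, rose in TRUC, DSS, IL-10 blockade and TCT (0.98 to 3.14). Ccr3, the eotaxin receptor, was under 2.2 CPM in every mouse and rose in DSS (2.87 ± 0.61) and in anti-CD40, where its controls had 1 count (ratio 20.7, 3.31 to 858). Ccr8, the receptor of mouse CCL8, was called in TCT only (1.11 to 2.18 CPM against 0.16 to 0.29 CPM, 2.63 ± 0.60), and Ccr6, that of CCL20, in none of the 6 (log2 fold changes from -1.11 to 1.59).

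Of the 10 other CC ligands tested, 7 were called higher in TCT, 5 in DSS, 4 in IL-10 blockade, 3 in TRUC, 2 in anti-CD40 and 0 in DNBS (3 at an unadjusted p under 0.05 and 2 by DESeq2), and 3 were called lower in TRUC. Among all genes 16.1%, 17.7%, 27.2%, 22.4%, 10.9% and 3.95% were called higher in these models, in that order, and 23.4% lower in TRUC. Both TRUC counts lie near those shares. Ccl22, a CCR4 ligand of dendritic cells, rose in 5 models, from 1.43 ± 0.49 in TRUC to 3.62 ± 0.52 in anti-CD40. Ccl12, a mouse CCR2 ligand, rose in DSS (3.08 ± 0.52), TCT (1.86 ± 0.57), anti-CD40 (1.80 ± 0.57) and TRUC (1.46 ± 0.52). Ccl19 and Ccl21a have near-identical copies in the mouse genome, and their counts are uncertain. Ccl26 had no count.

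Among 8 upstream cytokines tested, Il1b was called higher in all 6 models and Tnf in all but DNBS. The 8 cytokines had 7 called higher in DSS, 4 in TRUC, 4 in IL-10 blockade, 3 in TCT, 2 in anti-CD40 and 1 in DNBS, and 1 called lower in each of IL-10 blockade, TCT and anti-CD40. Shares of all genes called higher were 17.7%, 22.4%, 27.2%, 16.1%, 10.9% and 3.95%, in that order. Those called lower were 26.1%, 14% and 10.7%. Il1b and Tnf induce several of these chemokines in macrophages and stromal cells. Il1b ran from 2.94 ± 1.00 in anti-CD40 to 8.47 ± 1.07 in DSS, where mice held 48.4 to 1291 CPM. Tnf ran from 3.52 ± 0.87 in anti-CD40 to 5.89 ± 0.89 in DSS. Ifng, an inducer of Ccl5, was called in TRUC, DSS, IL-10 blockade and TCT, with 0.90 to 3.11 CPM, 0.14 to 47.5 CPM, 2.81 to 7.00 CPM and 3.93 to 6.95 CPM over controls with at most 1 count in all. In TCT no control had a count, which makes it at least 50.7-fold higher against 3 counts over the group.

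Over the 29 mice, and as a description, the inflammatory members were correlated with each other, though less evenly within groups. On log2 CPM, Pearson's r was 0.95 for Ccl3 and Ccl4, 0.92 for Ccl2 and Ccl8, 0.90 for Ccl2 and Ccl7, 0.89 for Ccl7 and Ccl8 and 0.84 for Ccl5 and Ccl8. After group means were removed and DSS mouse 8 left out, these were 0.58, 0.55, 0.61, 0.46 and 0.66, and some other pairs lay below 0, among them Ccl3 and Ccl5 (-0.29), Ccl4 and Ccl7 (-0.20), Ccl3 and Ccl8 (-0.12) and Ccl4 and Ccl8 (-0.025). Ccl28 ran opposite to Ccl3 (r = -0.82, and -0.38 within groups without that mouse), and Ccl24 was near 0 with Ccl2 (-0.06). The points share libraries and, within a group, a treatment.

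The genes most like each member over the 29 mice were, for Ccl2, Cxcl10 (r = 0.97), which encodes a CXCR3 ligand, and Trem3 (0.95). Ccl3 was closest to Osm (0.95), the gene of oncostatin M, and Samsn1 (0.94), Ccl4 to Stx11 (0.96) and Tarm1 (0.93), and Ccl5 to Ly6i (0.97) and H2-Eb1 (0.96), an MHC class II chain. Ccl7 was closest to Tnfrsf1b (0.96), a TNF receptor, and Tmem173 (0.96), which encodes STING, and Ccl8 to Cp (0.96), ceruloplasmin, and Fcgr4 (0.95). The values were lower for Ccl11 (Gpr146 0.88, Sphk1 0.87), Ccl28 (Oit1 0.90, Ckmt1 0.89), Ccl20 (Snx16 0.74, Adora1 0.72) and Ccl24 (Me3 0.76, Rps3a1 0.75).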

How the data were processed

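Polyadenylated RNA of colon segments from 29 mice was sequenced. The authors deposited raw read counts per gene, and the submitters' processing notes name Trimmomatic, HISAT2, HTSeq and GRCm38, with versions not given in the sources used here. The stated library kit does not mark strand. Of 54532 genes, 20470 had no counts, and 92 spike-in rows at 0 were left out. Ensembl IDs were given symbols, positions and exon lengths from GENCODE M21.

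Counts were fitted with edgeR 4.0.16 (R 4.3.3, TMM scaling, all 9 groups in 1 fit, no covariates) over the 18616 genes whose mean count reached 3. The quasi-likelihood test set every model against its control, with Benjamini-Hochberg adjustment and a threshold of 0.05. SE is the log2 fold change divided by the root of F. CPM are counts per 1000000 of the TMM-scaled library total. Ratios against 1 to 3 control counts carry 95% counting intervals. DESeq2 1.42.0, other scalings, filters, thresholds and controls, the 2 groups alone, a replicate block and leaving out each mouse were the alternatives. All 33 pairs of mice within a group differed by more than counting noise (chi-square per degree of freedom at least 3.649). On simulated counts for TRUC over 18502 genes, 56% of genes changed 2-fold and 84% of those changed 4-fold were recovered.

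All 10 members are named, with the receptors of the members (1 is not reported here), other CC ligands and cytokines called in at least 4 models, and the 2 genes most correlated with each member. The members and lists were chosen with earlier results of these data known. Nothing states that mice of a group came from separate cages or litters, so p-values measure the spread between these samples. Same-numbered mice did not deviate together (correlations from -0.052 to 0.056), so no block was used.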

Additional observations from a re-analysis of the deposited data

Results flagged for a closer look

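Each value here comes from a test of a difference between models. Single mice far from their group were looked for only in the 2 groups of 4 mice (20 sets of values, none past the limit), so the DSS group of 3 could not be tested for mouse 8. Of 10 members, 9 had changes that were unequal over the 6 models, with adjusted p (edgeR's quasi-likelihood F test, Benjamini-Hochberg) of 2.6e-05 for Ccl8, 3.5e-05 for Ccl3, 4.9e-05 for Ccl11, 5.2e-05 for Ccl4, 3.1e-04 for Ccl5, 9.9e-04 for Ccl24, 0.0067 for Ccl2, 0.017 for Ccl7 and 0.022 for Ccl20. The same F test called 60.5% of all genes, so unequal changes were common in this series. In DSS against DNBS the log2 fold change was higher in DSS by 2.72 for Ccl2, 6.00 for Ccl3, 6.85 for Ccl4, 4.08 for Ccl5, 2.72 for Ccl7, 3.60 for Ccl8, 2.35 for Ccl11 and 2.14 for Ccl20. In IL-10 blockade against DSS the difference was -2.01 for Ccl2, -5.20 for Ccl3, -4.89 for Ccl4, -1.05 for Ccl8, -1.70 for Ccl11, -2.45 for Ccl24 and 0.80 for Ccl28. TCT exceeded anti-CD40 by 3.60 for Ccl5 and 1.25 for Ccl8. DSS mouse 8 decides several of these values, as given beside them in the report.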

How the results depend on the processing

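Counts of called members moved by more than 1.5 times in these cases, and the cause was not tested. TRUC had 8 higher and 1 lower with the 2 groups alone (28.7% and 28.8% of all genes) and with the replicate block (20.2% and 18.7%). It had 1 lower with upper quartile scaling (28.2%). DSS had 0 lower with the 2 groups alone (10.6% of all genes) and at a threshold of 0.01. It had 0 to 1 lower when single mice were left out (10.2% to 16.6%). DNBS had 0 higher with RLE (3.79% of all genes) or upper quartile scaling (2.91%) and at 0.01. It had 2 with no filter (2.19%), filterByExpr (4.6%), DESeq2 (5.93%) or the 2 groups alone (1.87%). With single mice left out it had 0 to 2 (0.839% to 7.36%). At 0.01, IL-10 blockade had 5 higher, TCT 4 and TCT against anti-CD40 1 differing, and with single mice left out these were 5 to 8, 4 to 6 and 1 to 2. TCT had 1 lower with the 2 groups alone (13.4% of all genes). Leaving out single mice gave 5 to 9 members differing in DSS against DNBS (8.65% to 24.9% of all genes). In IL-10 blockade against DSS it gave 4 to 8 (43.6% to 49.5%).

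With the replicate block, IL-10 blockade had 6 members higher and 1 lower (21.2% and 20% of all genes): Ccl11 (0.77, adjusted p = 0.12, edgeR) and Ccl20 (1.55, adjusted p = 0.20) were no longer called. In TRUC this block fit, which also holds the 2 groups alone, called Ccl3 (2.78), Ccl4 (3.25), Ccl20 (1.32), Ccl24 (1.08) and Ccl28 (-0.65) beyond the main fit. The 2 groups alone without a block gave the same counts of members, as given above, so the gain was not particular to the block.

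Directions reversed for values that were uncalled, and for Ccl2 in IL-10 blockade against DSS, which ran from -2.51 to 0.14 with single mice left out and was 0.14 without DSS mouse 8. Ccl5 in that contrast ran from -0.12 to 3.15 (-0.09 without DSS mouse 5, -0.12 without mouse 6). Ccl5 in DNBS ran from -1.06 (without DNBS mouse 16) to 1.27. Ccl20 in DNBS ran from -0.45 to 0.079 (above 0 without wild-type mouse 1, DNBS mouse 11 or DNBS mouse 16). Ccl28 in IL-10 blockade ran from -0.15 to 0.12 (without mouse 4), and Ccl20 in TCT from -0.23 (without mouse 1) to 0.72. Ccl24 in TCT ran from -0.41 (without mouse 5) to 1.05, and was -0.24 and -0.37 against the wild-type and Rag2 controls. Against the Rag2 controls, anti-CD40 had Ccl11 at -0.41, Ccl20 at -0.071 and Ccl24 at -0.35. Ccl20 in anti-CD40 ran from -0.24 to 0.27 with single mice left out (below 0 without Rag1 control 4 or mouse 6 or 8), and was -0.013 with upper quartile scaling, which moved the median of all genes to -0.14 in TRUC and -0.18 in IL-10 blockade. The F test was not run with DESeq2. At these depths a gene without counts could hold up to 3 counts.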
